A study of Homo sapiens with 16 samples.

Results

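The genes described here are 40 genes that supply a growing cell with ribosomes, nucleotides, polyamines and iron, and that are widely described as targets of the transcription factor MYC. They were taken from a list chosen with earlier results of these data known. All 40 were found among the 64252 gene identifiers of the deposited tables and passed the filter on low counts in every comparison. The list holds 30 ribosome assembly genes and 10 genes of nucleotide synthesis, polyamine synthesis and iron uptake, in 9 role groups. Messenger RNA was measured in Jurkat and 6T-CEM, established human lines labelled as T-cell acute lymphoblastic leukaemia (T-ALL) cells. The cells carried a short hairpin RNA, either the control sh-NC or sh-SH2D1A against SH2D1A, the gene of SAP, a small adaptor protein of SLAM family receptors. Jurkat was sampled on day 8 and day 10, and 6T-CEM on day 5 and day 10, so that 4 comparisons of sh-SH2D1A with sh-NC each have sh-NC libraries of their own. Each of the 8 groups has 2 libraries, which makes 16. The labels name no event that the days are counted from, and do not say of a group whether its 2 libraries came from separate cultures, so a p-value covers the spread between them and nothing wider. In bulk RNA, fewer cells expressing a gene and less of its RNA per cell cannot be told apart.

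A ribosome is built in the nucleolus. RNA polymerase I copies the ribosomal DNA into a long precursor, small nucleolar RNA particles guide its modification and cutting, and the small and large subunits are then assembled by separate sets of factors. The purine and pyrimidine pathways make the nucleotides for this RNA from small precursors, polyamines bind and stabilise RNA, and the transferrin receptor brings in the iron that many enzymes of growth need. MYC binds the DNA letters CACGTG, called an E-box, and raises many of these genes in dividing lymphocytes.

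Promoter windows are printed for 5 members, to show what windows with and without an E-box near the start site look like. Each window is 300 bases from RefSeq on GRCh38.p14, from 250 bases before the start site to 50 after it, in the direction of the gene, and capitals mark CACGTG. They were chosen by their rank in p for the mean of the 4 changes within their role groups, 3 with the motif and 2 without it, so their having clear changes is no finding. ATIC ranks after GART, which does not hold the motif, and the other 4 lead their groups. SRM (spermidine synthase, chr1:11059969-11060268, minus strand) has it at position -199 from the start base, counted as 0. UTP20 (small subunit assembly, chr12:101279855-101280154, plus strand) has it at -10, and ATIC (purine synthesis, chr2:215311809-215312108, plus strand) at -46 and at 29. TFRC (transferrin receptor, chr3:196082041-196082340, minus strand) and DDX21 (nucleolar RNA helicase, chr10:68955920-68956219, plus strand) do not hold it.
SRM: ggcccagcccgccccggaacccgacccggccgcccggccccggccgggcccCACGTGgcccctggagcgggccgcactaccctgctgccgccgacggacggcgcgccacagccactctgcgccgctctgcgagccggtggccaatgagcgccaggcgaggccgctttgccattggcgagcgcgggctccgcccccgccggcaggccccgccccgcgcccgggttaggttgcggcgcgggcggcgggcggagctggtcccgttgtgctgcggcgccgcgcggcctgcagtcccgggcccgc
UTP20: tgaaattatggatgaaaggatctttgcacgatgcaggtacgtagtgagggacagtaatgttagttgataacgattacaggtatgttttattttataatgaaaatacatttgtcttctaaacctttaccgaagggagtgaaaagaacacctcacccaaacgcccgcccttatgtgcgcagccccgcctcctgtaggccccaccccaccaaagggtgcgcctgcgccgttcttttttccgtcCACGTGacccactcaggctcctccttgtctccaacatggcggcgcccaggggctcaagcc
ATIC: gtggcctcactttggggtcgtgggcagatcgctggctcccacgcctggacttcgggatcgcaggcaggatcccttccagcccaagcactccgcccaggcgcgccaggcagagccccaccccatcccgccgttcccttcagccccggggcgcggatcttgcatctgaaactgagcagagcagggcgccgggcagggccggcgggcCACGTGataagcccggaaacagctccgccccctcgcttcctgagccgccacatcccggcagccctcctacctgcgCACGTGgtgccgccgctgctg
TFRC: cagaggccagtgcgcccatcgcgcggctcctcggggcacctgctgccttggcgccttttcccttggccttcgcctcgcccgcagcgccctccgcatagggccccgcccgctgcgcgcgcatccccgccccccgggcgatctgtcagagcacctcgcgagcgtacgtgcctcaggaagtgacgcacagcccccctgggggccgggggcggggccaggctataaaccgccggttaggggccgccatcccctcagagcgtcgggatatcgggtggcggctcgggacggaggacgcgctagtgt
DDX21: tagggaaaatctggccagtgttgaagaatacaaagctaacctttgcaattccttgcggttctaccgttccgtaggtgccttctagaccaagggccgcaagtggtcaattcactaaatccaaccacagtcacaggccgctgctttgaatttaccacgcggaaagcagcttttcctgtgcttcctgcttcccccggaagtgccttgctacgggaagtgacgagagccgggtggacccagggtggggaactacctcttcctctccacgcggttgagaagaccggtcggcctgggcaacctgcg
RefSeq windows were found for 32 of the 40 members, and 11 of these, 34.4%, hold CACGTG, which reads the same on both strands. Of all 35116 promoters of that length 7.26% hold it, and of 122 windows of other genes of the same pathways 33, or 27%, do. CACGCG, searched on both strands (CGCGTG on the other), is in 8 member windows, or 25%, against 11.4% of all promoters. Of the windows of other pathway genes 25.4% hold it, so neither motif is particular to the members. For 6 members the RefSeq start lies over 1000 bases from the start of the GENCODE 29 gene, and none of these is printed. Of the 20 members with a window that were higher in Jurkat on day 8, 6 hold CACGTG, and 5 of the other 12 do. These are matches of letters, and binding was not measured.

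Total counts were between 27217899 and 33788024 per library, and the 40 members took between 0.479 and 0.788% of them. SH2D1A was lower with sh-SH2D1A in all 4 comparisons by edgeR, by log2 changes of -1.72 ± 0.07 and -1.60 ± 0.10 in Jurkat on days 8 and 10, and -1.71 ± 0.12 and -1.0 ± 0.05 in 6T-CEM on days 5 and 10. Of 8 T cell markers, none was under 1 CPM in every library, and their sum ranged from 1120 to 2396 CPM. B cell markers summed to between 16.5 and 74.9 CPM, nearly all of it CD79A, with MS4A1 and PAX5 at most 0.310 and 0.370 CPM. Myeloid, epithelial and erythroid lists stayed under 6 CPM in every library, with 3 of 5 genes under 1 CPM throughout in each. The 6T-CEM day 5 sh-SH2D1A libraries differed more from each other than any other pair (chi-square per degree of freedom 24.6, against 5.01 to 10.2), with 7.98 and 9.19% of counts on mitochondrial genes against 7.44 and 7.63% in their controls. The summed T cell markers were lower with sh-SH2D1A, without overlap, in Jurkat on day 8 (1942 to 2105 against 1822 to 1835 CPM) and day 10 (2288 to 2396 against 2025 to 2136) and in 6T-CEM on day 10 (1305 to 1332 against 1222 to 1243). The B cell sum was lower without overlap in all 4 comparisons, the most in 6T-CEM on day 10, at 44.5 to 45.7 against 27.01 to 30.3 CPM. At much lower levels, the erythroid sum was higher in 6T-CEM on day 5 (0.333 to 0.579 against 0.905 to 1.08 CPM) and day 10 (1.51 to 1.55 against 4.09 to 4.21). The myeloid sum was higher in Jurkat on day 8 (1.02 to 1.30 against 1.41 to 1.76 CPM) and 6T-CEM on day 5 (1.40 to 1.89 against 2.56 to 2.87), and lower in 6T-CEM on day 10 (2.02 to 2.42 against 1.504 to 1.703), where the epithelial sum was lower too (5.65 to 5.73 against 4.78 to 5.45). Their part in the results was not tested. Throughout, levels are CPM, read counts relative to library size, scaled by trimmed means of M-values (TMM), a change is the log2 ratio of sh-SH2D1A to sh-NC ± its standard error, and a gene is called at an edgeR adjusted p under 0.05.

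In Jurkat on day 8, 23 of the 30 ribosome assembly members and 3 of the other 10 rose. edgeR thus called 26 of the 40 members higher and 1 lower, where 5.23% of all 19266 genes tested were called higher and 7.13% lower. The median change was 0.30 over the members and -0.0032 over all genes. At day 10 in Jurkat 5 members were higher and 1 lower, against 1.26% and 2.52% of 19079 genes, with a median change of 0.22. In 6T-CEM at day 5 no member was called higher and 1 was lower, against 0.606% and 1.51% of 19482 genes. At an unadjusted p under 0.05, 3289 genes passed in that comparison in all, and the median member change was 0.13. For 6T-CEM on day 10 the members were split, with 3 higher and 6 lower, against 6.61% and 7.42% of 19610 genes, and a median of -0.03.

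Counts differed by role mainly in Jurkat on day 8. Of all genes, 5.23, 1.26, 0.606 and 6.61% were called higher in Jurkat on days 8 and 10 and 6T-CEM on days 5 and 10. In the same order, 7.13, 2.52, 1.51 and 7.42% were called lower. Of the 30 ribosome assembly members, 23 rose and 0 fell in Jurkat on day 8, 4 and 0 on day 10, 0 and 0 in 6T-CEM on day 5, and 2 and 4 on day 10. Of the 10 nucleotide, polyamine and iron members, 3 rose and 1 fell on day 8 in Jurkat, 1 and 1 on day 10, 0 and 1 in 6T-CEM on day 5, and 1 and 2 on day 10. SRM was the gene that fell in all 4, joined by TFRC in 6T-CEM on day 10. Over the 4 comparisons, 27 members were higher in at least 1, 6 were lower in at least 1, 3 were called in both directions and 10 in none. The same patterns were not counted over all genes, so these counts only describe the members. In the fit of all 16 libraries, the mean of the 4 changes was called higher for 27 members and lower for 2, SRM and RRP1B, against 10.7% and 12.3% of 22032 genes. With the 6T-CEM day 5 libraries left out, a choice made after the data were seen, it was 30 and 1. The share of all genes called in that fit is not given here, so the 2 fits are not compared.

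**Figure D1:**
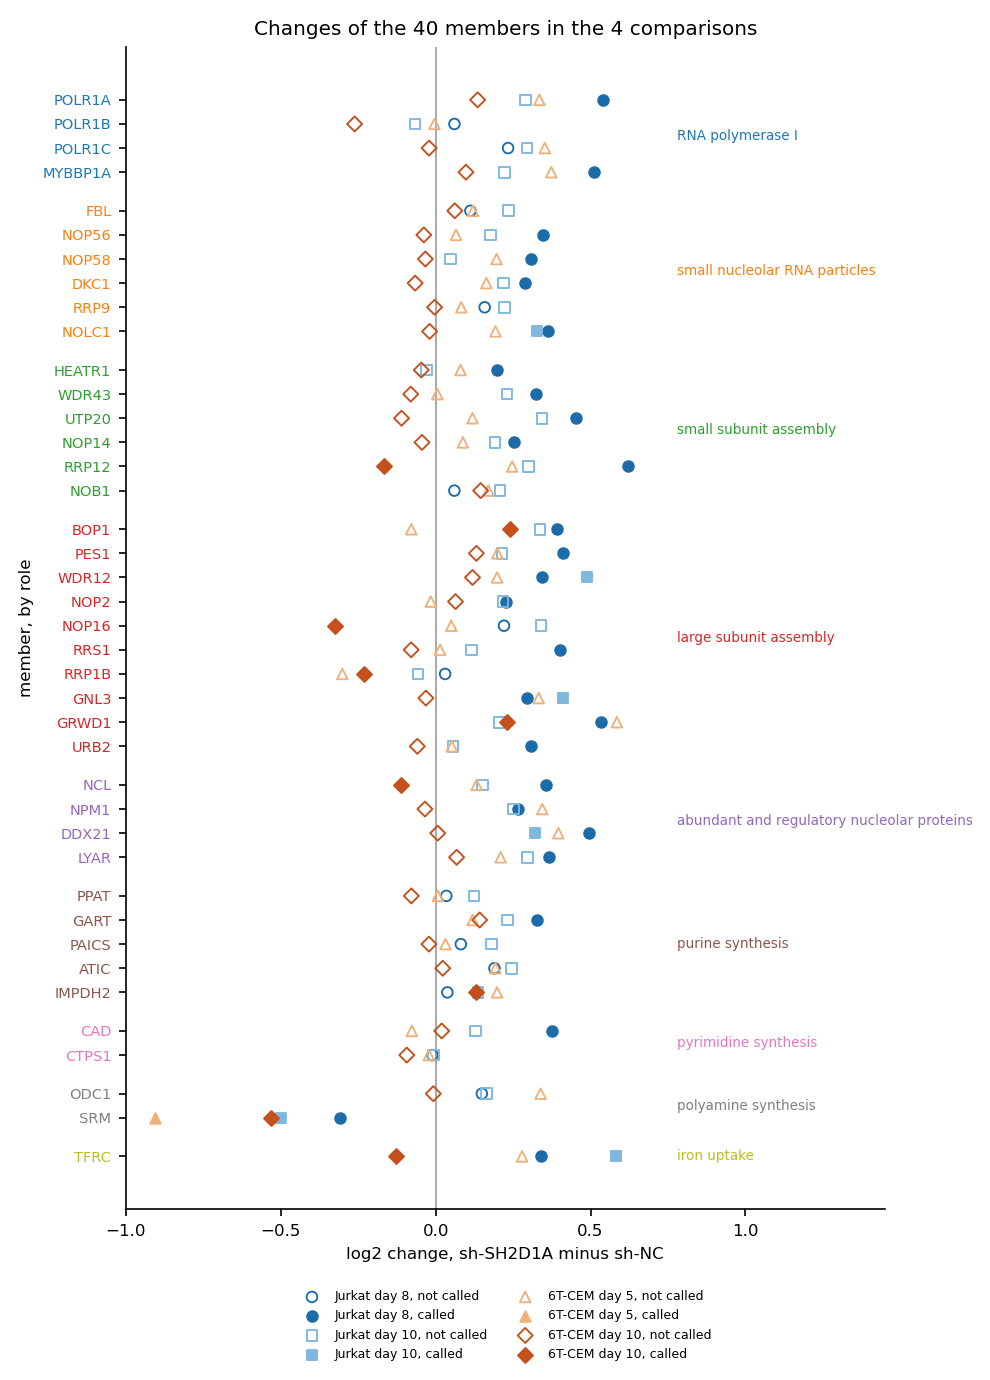
Log2 change with sh-SH2D1A (x axis) of each of the 40 members (y axis, coloured by role) in the 4 comparisons, 2 libraries per arm, with filled symbols for changes called by edgeR and open ones for the rest. Most filled circles, Jurkat on day 8, lie between 0.2 and 0.62, while SRM lies left of 0 in all 4 comparisons, from -0.31 to -0.90.

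**Figure D2:**
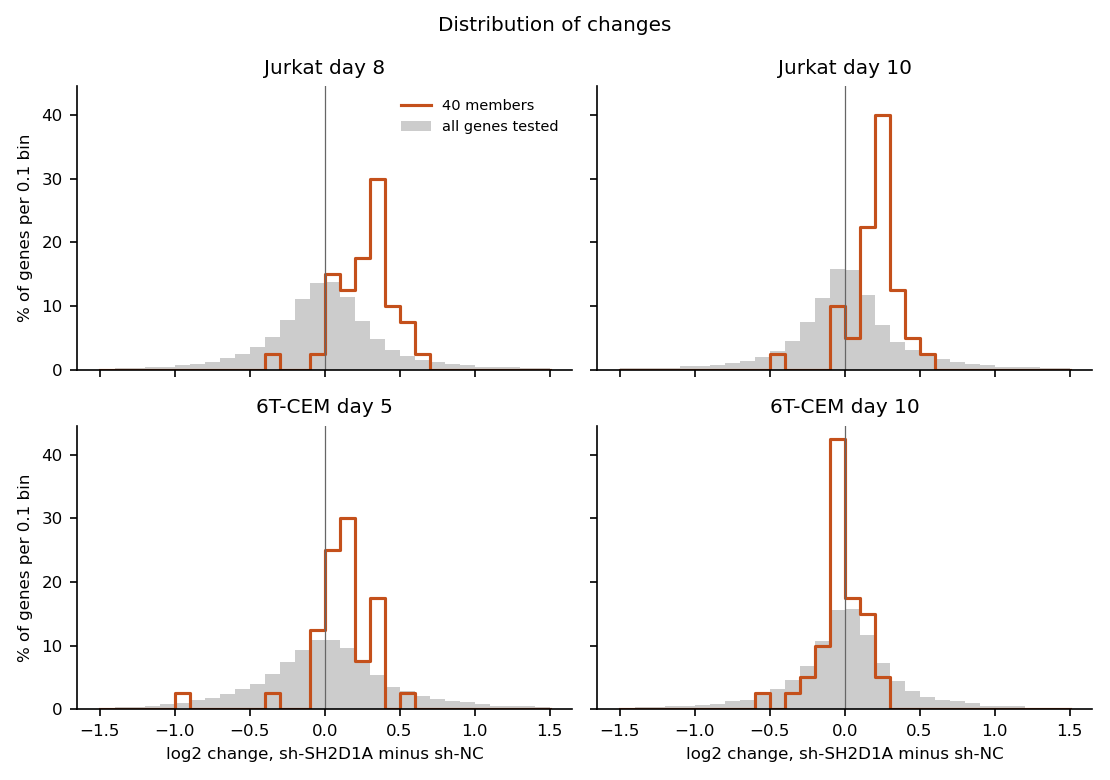
Share of genes (y axis, %) in bins of 0.1 of the log2 change with sh-SH2D1A (x axis, drawn from -1.5 to 1.5), for all genes tested (grey bars) and the 40 members (line), in each comparison. The member medians are 0.30 and 0.22 in Jurkat on days 8 and 10, and 0.13 and -0.03 in 6T-CEM on days 5 and 10.

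The number of calls depended on single libraries, and no called member change took the other sign under any alternative. In Jurkat on day 8, 11 members stayed called without sh-SH2D1A replicate 1 and 7 without replicate 2. UTP20 was lost without replicate 1, and BOP1, CAD, NCL, NOLC1 and NOP56 without replicate 2. The other calls of that comparison, apart from POLR1A, MYBBP1A, RRP12, PES1, GRWD1 and DDX21, were lost without either, RRS1 and SRM also without sh-NC replicate 2 and NOP2 also without sh-NC replicate 1. At day 10, 1 was called without sh-NC replicate 1 and 3 without sh-SH2D1A replicate 2. In 6T-CEM on day 5 none was called without sh-NC replicate 2, and 8 and 5 without sh-SH2D1A replicates 1 and 2. At day 10 the count was 4 and 5 without sh-NC replicates 1 and 2, and 5 without sh-SH2D1A replicate 2. Testing every gene, with low counts kept, raised the number adjusted for and also changed the fit itself. In the 4 comparisons 17, 0, 1 and 2 members were then called. Of the 43 called changes, 8 stayed called under each of the 11 alternatives: those 6 in Jurkat on day 8, and RRP1B and SRM in 6T-CEM on day 10.

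Among the 4 RNA polymerase I genes, 2 rose in Jurkat on day 8 and none was called in the other 3 comparisons. POLR1A (chromosome 2, 86020216 to 86106155, hg38) encodes the largest subunit of the enzyme. In Jurkat on day 8 it was at 143 and 132 CPM in the sh-NC libraries and 196 and 207 in the sh-SH2D1A libraries, a change of 0.54 ± 0.06 (edgeR adjusted p = 0.00227). Its changes were 0.29 ± 0.09 on day 10 and 0.33 ± 0.13 and 0.14 ± 0.05 in 6T-CEM on days 5 and 10 (not called), with both sh-SH2D1A libraries above both sh-NC libraries each time. MYBBP1A, a nucleolar partner of MYB proteins, went from 122 and 119 to 176 and 170 CPM in Jurkat on day 8, or 0.51 ± 0.05 (edgeR adjusted p = 0.00147). Its log2 ratios were 0.22 ± 0.11 on day 10 and 0.37 ± 0.18 and 0.10 ± 0.04 in 6T-CEM (not called). POLR1C, a subunit shared with RNA polymerase III, had log2 ratios of 0.23 ± 0.08, 0.29 ± 0.12 and 0.35 ± 0.18 in Jurkat on days 8 and 10 and in 6T-CEM on day 5 (not called). In 6T-CEM at day 10 it was at 41.4 and 39.8 CPM with sh-NC, against 40.9 and 38.9 with sh-SH2D1A, which overlap. POLR1B, the partner subunit of POLR1A in the catalytic core, was called in none, and was added after its values were seen. It was at 45.6 and 42.4 CPM with sh-NC, against 38.3 and 34.9 with sh-SH2D1A in 6T-CEM on day 10. That change of -0.26 ± 0.07 missed the threshold (edgeR adjusted p = 0.0518). Its arms overlapped in the other comparisons. The log2 ratios there were 0.06 ± 0.09 and -0.07 ± 0.12 in Jurkat on days 8 and 10, and -0.0036 ± 0.16 in 6T-CEM on day 5 (not called).

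Of the 6 genes of small nucleolar RNA particles, 4 rose in Jurkat on day 8, NOP56, NOP58, DKC1 and NOLC1, and NOLC1 rose on day 10 too. NOLC1 encodes Nopp140, a chaperone of these particles. It was at 242 and 249 CPM with sh-NC, against 314 and 319 with sh-SH2D1A on day 8, or 0.36 ± 0.05 (edgeR adjusted p = 0.00398). By day 10 it was at 160 and 170 against 201 and 212, or 0.33 ± 0.08 (edgeR adjusted p = 0.0474), a call lost when any 1 of the 4 libraries was left out. For 6T-CEM on day 10 it was at 304 and 308 against 300 and 303 CPM, and on day 5 the change was 0.19 ± 0.12 (not called). DKC1, the pseudouridine synthase of box H/ACA particles, went from 132 and 132 CPM to 165 and 159 in Jurkat on day 8, or 0.29 ± 0.05 (edgeR adjusted p = 0.0115). Its log2 ratios were 0.22 ± 0.08 on day 10 and 0.16 ± 0.12 in 6T-CEM on day 5 (not called), and in 6T-CEM on day 10 it was at 164 and 160 against 160 and 148 CPM. NOP56, a core protein of box C/D particles, went from 237 and 249 to 309 and 313 CPM in Jurkat on day 8, or 0.35 ± 0.05 (edgeR adjusted p = 0.00531), with a log2 ratio of 0.18 ± 0.08 on day 10 (not called). Its arms overlapped in 6T-CEM, at 176 and 162 against 185 and 166 CPM on day 5 and 309 and 295 against 289 and 298 on day 10. FBL, the methyltransferase of the same particles, and RRP9, a protein of the U3 particle, were called in none of the 4. DKC1, NOP56 and NOP58 hold small nucleolar RNA genes inside their spans, and the strand setting of the counts is not given in the sources used here.

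In small subunit assembly 5 of 6 members rose in Jurkat on day 8, and RRP12 moved both ways. RRP12 (chromosome 10, 97356358 to 97426076), a factor for export of pre-ribosomes, had the largest change of all members in that comparison. It was at 64.8 and 58.9 CPM with sh-NC, against 96.7 and 94.7 with sh-SH2D1A, or 0.62 ± 0.07 (edgeR adjusted p = 0.00188). In 6T-CEM on day 10 it was at 89.5 and 88.6 against 79.0 and 79.3 CPM, or -0.17 ± 0.04 (edgeR adjusted p = 0.0327), and that call was lost when any 1 library was left out. Its changes at the other times were 0.30 ± 0.11 in Jurkat on day 10 and 0.25 ± 0.20 in 6T-CEM on day 5 (not called). UTP20, a component of the small subunit processome, went from 61.6 and 55.1 CPM to 83.8 and 76.9 in Jurkat on day 8, or 0.45 ± 0.08 (edgeR adjusted p = 0.0106). The change was 0.34 ± 0.10 on day 10, and 0.12 ± 0.14 and -0.11 ± 0.05 in 6T-CEM on days 5 and 10 (not called). NOB1, the nuclease that makes the last cut at the end of 18S ribosomal RNA, was the member not called on day 8 in Jurkat, with 68.2 and 70.7 CPM against 70.4 and 75.2. Its log2 ratios were 0.21 ± 0.09 in Jurkat on day 10 and 0.15 ± 0.06 in 6T-CEM on day 10 (not called). HEATR1, WDR43 and NOP14, of the same processome, rose on day 8 in Jurkat by 0.20, 0.32 and 0.25 and were called nowhere else. The exons of HEATR1 overlap those of LGALS8 on the other strand, so its reads may be shared.

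Large subunit assembly is the largest group, and 8 of its 10 genes rose in Jurkat on day 8. BOP1, PES1 and WDR12, which form one complex, rose there by 0.39 ± 0.06, 0.41 ± 0.05 and 0.34 ± 0.06. GRWD1 (chromosome 19, 48445773 to 48457022), a chaperone of a ribosomal protein, went from 65.7 and 60.9 to 93.8 and 90.7 CPM, or 0.54 ± 0.06 (edgeR adjusted p = 0.0027). Its levels in 6T-CEM on day 10 were 97.4 and 90.8 CPM with sh-NC and 111 and 109 CPM with sh-SH2D1A, or 0.23 ± 0.05 (edgeR adjusted p = 0.0125, lost without sh-NC replicate 2). GRWD1 and BOP1 were the 2 members called higher in both lines, though both 6T-CEM calls were lost with no filter on low counts and with all 16 libraries in 1 fit, and so was the Jurkat day 8 call of BOP1 in that fit. BOP1 was at 151 and 156 CPM with sh-NC, against 186 and 175 with sh-SH2D1A in 6T-CEM on day 10, or 0.24 ± 0.04 (edgeR adjusted p = 0.00621). At day 5 the sh-SH2D1A libraries of BOP1, 75.3 and 52.5 CPM, lay on either side of the sh-NC libraries at 70.0 and 66.0. The log2 ratio of GRWD1 was 0.59 ± 0.16 in 6T-CEM on day 5 (edgeR adjusted p = 0.0986, not called) and 0.21 ± 0.11 in Jurkat on day 10 (not called).

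GNL3 and WDR12 rose at both times in Jurkat. GNL3, which encodes nucleostemin, was at 122 and 123 CPM with sh-NC, against 156 and 146 with sh-SH2D1A on day 8, or 0.29 ± 0.05 (edgeR adjusted p = 0.0141). On day 10 it was at 73.8 and 81.8 against 104 and 102, or 0.41 ± 0.09 (edgeR adjusted p = 0.0266, lost without sh-NC replicate 1 or sh-SH2D1A replicate 1). WDR12 was at 46.5 and 50.8 CPM with sh-NC, against 65.1 and 71.3 with sh-SH2D1A on day 10, or 0.49 ± 0.09 (edgeR adjusted p = 0.019, lost without sh-NC replicate 1 or sh-SH2D1A replicate 2). In 6T-CEM on day 5 GNL3 had a log2 ratio of 0.33 ± 0.12 and WDR12 one of 0.20 ± 0.14 (not called). At day 10 in 6T-CEM that of WDR12 was 0.12 ± 0.05 (not called), and the arms of GNL3 overlapped at 153 and 144 against 144 and 146 CPM.

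RRP1B and NOP16 fell in 6T-CEM on day 10, against BOP1 and GRWD1 of the same group. RRP1B, a nucleolar protein of ribosomal RNA processing, went from 213 and 226 to 186 and 187 CPM, or -0.23 ± 0.04 (edgeR adjusted p = 0.00452). At day 5 it was at 155 and 156 against 128 and 123 CPM, or -0.30 ± 0.11 (not called), and the Jurkat log2 ratios were 0.03 ± 0.05 and -0.06 ± 0.08 (not called). Its sh-SH2D1A libraries lay below control in both 6T-CEM tables, and above it or overlapping it in Jurkat. NOP16, a late nucleolar factor, went from 27.1 and 26.4 to 20.8 and 21.9 CPM in 6T-CEM on day 10, or -0.32 ± 0.08 (edgeR adjusted p = 0.037, lost when any 1 library was left out), and had a log2 ratio of 0.34 ± 0.14 in Jurkat on day 10 (not called). NOP2, RRS1 and URB2 were called higher in Jurkat on day 8 alone, by 0.23 ± 0.05, 0.40 ± 0.10 and 0.31 ± 0.06. NOP2 had a similar change of 0.22 ± 0.09 in Jurkat on day 10 (not called), at 73.8 and 66.2 CPM against 81.3 and 81.1. NOP2, GRWD1 and RRS1 share exon bases with an overlapping gene on their own strand, and GNL3 with small nucleolar RNA genes. The counts of all of these are uncertain.

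The 4 abundant and regulatory nucleolar genes all rose in Jurkat on day 8. NCL, which encodes nucleolin, and NPM1, which encodes nucleophosmin, had the highest levels per kilobase of exon of the ribosome assembly members in the Jurkat sh-NC libraries, at 116 and 142 CPM per kb on day 8. NCL (chromosome 2, 231453531 to 231483641) was at 803 and 802 CPM with sh-NC, against 1017 and 1048 with sh-SH2D1A on day 8, or 0.36 ± 0.05 (edgeR adjusted p = 0.00389). In 6T-CEM on day 10 it was at 817 and 823 against 761 and 752, or -0.11 ± 0.03 (edgeR adjusted p = 0.0238), a call lost without either sh-NC library or sh-SH2D1A replicate 2. Its log2 ratios were 0.15 ± 0.07 and 0.13 ± 0.11 in Jurkat on day 10 and 6T-CEM on day 5 (not called). DDX21, an RNA helicase of ribosomal transcription and processing, went from 194 and 190 to 275 and 269 CPM in Jurkat on day 8, or 0.49 ± 0.05 (edgeR adjusted p = 0.00141). On day 10 it went from 146 and 154 to 183 and 191, or 0.32 ± 0.08 (edgeR adjusted p = 0.0499, lost when any 1 library was left out). Its log2 ratio was 0.40 ± 0.13 in 6T-CEM on day 5 (not called), and on day 10 the arms overlapped at 286 and 283 against 276 and 294 CPM. NPM1 went from 530 and 558 to 671 and 645 CPM in Jurkat on day 8, or 0.27 ± 0.05 (edgeR adjusted p = 0.0151), and had log2 ratios of 0.25 ± 0.08, 0.34 ± 0.12 and -0.03 ± 0.03 in the other 3 (not called). NPM1 has 45 named pseudogenes in the annotation, with which its reads could be split. The same holds for PAICS with 7, NOP56 with 3, SRM, NCL, PES1 and PPAT with 2 each, and LYAR with 1. LYAR, a nucleolar zinc finger protein, went from 45.8 and 45.3 to 58.1 and 60.0 CPM on day 8, or 0.37 ± 0.06 (edgeR adjusted p = 0.0112), and had log2 ratios of 0.30 ± 0.10, 0.21 ± 0.15 and 0.07 ± 0.04 elsewhere (not called).

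Of the 5 purine synthesis genes, 1 was called higher in Jurkat on day 8 and 1 in 6T-CEM on day 10. Of all genes, 5.23% and 6.61% were. The mean of the 4 changes was called higher for 3 of the 5, GART, ATIC and IMPDH2, against 10.7% of all genes. The median change of the purine genes was 0.08 in Jurkat on day 8, where ribosome assembly members had 0.32, and 1 of 5 rose. That gene was GART, an enzyme with 3 activities of the pathway, at 152 and 139 CPM with sh-NC, against 186 and 181 with sh-SH2D1A, or 0.33 ± 0.06 (edgeR adjusted p = 0.0138). Its log2 ratios were 0.23 ± 0.08 on day 10, and 0.12 ± 0.12 and 0.14 ± 0.04 in 6T-CEM on days 5 and 10 (not called). IMPDH2, the rate-limiting enzyme of guanine nucleotide synthesis, rose in 6T-CEM on day 10, from 165 and 162 to 179 and 178 CPM, or 0.13 ± 0.03 (edgeR adjusted p = 0.035, lost when any 1 library was left out). Its other changes were 0.04 ± 0.05, 0.14 ± 0.08 and 0.20 ± 0.12 in Jurkat on days 8 and 10 and 6T-CEM on day 5 (not called). ATIC, which closes the purine ring, was at 142 and 146 CPM with sh-NC, against 170 and 160 with sh-SH2D1A in Jurkat on day 8, or 0.19 ± 0.05 (edgeR adjusted p = 0.0592), and had log2 ratios of 0.24 ± 0.08 on day 10 and 0.19 ± 0.12 in 6T-CEM on day 5 (not called). PPAT, which commits the pathway, and PAICS, its neighbour on chromosome 4 (56393362 to 56435615 and 56435741 to 56464579), were called in none of the 4. PPAT was at 73.7 and 81.2 CPM with sh-NC, against 82.6 and 76.8 with sh-SH2D1A in Jurkat on day 8, and PAICS at 443 and 457 against 481 and 477.

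Of the 2 pyrimidine genes, CAD rose in 1 comparison and CTPS1 was not called. CAD, which catalyses the opening steps of pyrimidine synthesis, went from 292 and 264 to 356 and 369 CPM in Jurkat on day 8, or 0.38 ± 0.06 (edgeR adjusted p = 0.00918). On day 10 its change was 0.13 ± 0.08 (not called), and in 6T-CEM its arms overlapped at both times. CTPS1, which makes CTP and is needed for lymphocyte proliferation, was in Jurkat at 183 and 188 against 187 and 183 CPM on day 8 and 162 and 160 against 159 and 160 on day 10. In 6T-CEM it was at 148 and 138 against 145 and 136 CPM on day 5 and at 182 and 183 against 166 and 176 on day 10, and it was called in no comparison.

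In polyamine synthesis the gene of the step that makes spermidine fell, while that of the opening step was not called. SRM (ENSG00000116649, chromosome 1, 11054584 to 11060024), the spermidine synthase whose promoter is printed above, was the only member called in all 4 comparisons, lower each time. In Jurkat on day 8 it was at 92.2 and 105 CPM with sh-NC, against 79.5 and 80.2 with sh-SH2D1A, or -0.31 ± 0.07 (edgeR adjusted p = 0.0255). By day 10 it was at 70.2 and 62.2 against 49.7 and 43.7, or -0.50 ± 0.10 (edgeR adjusted p = 0.0263). In 6T-CEM it was at 63.7 and 68.1 against 37.3 and 32.6 CPM on day 5, or -0.90 ± 0.14 (edgeR adjusted p = 0.0172). On day 10 it was at 124 and 130 against 87.3 and 88.1, or -0.53 ± 0.04 (edgeR adjusted p = 0.000127). In every table the sh-SH2D1A libraries lay under the sh-NC libraries, with no overlap. SRM has 2 named pseudogenes in the annotation, with which its reads could be split. The Jurkat day 8 call was lost without sh-NC replicate 2 or either sh-SH2D1A library, with low counts kept and with all 16 libraries in 1 fit (edgeR adjusted p = 0.0585 to 0.131). The Jurkat day 10 call was lost without sh-NC replicate 1 or sh-SH2D1A replicate 2, and the 6T-CEM day 5 call without sh-NC replicate 2 (edgeR adjusted p = 0.0868). ODC1, the ornithine decarboxylase that opens the pathway and a standard MYC target, was at 229 and 250 CPM with sh-NC, against 275 and 258 with sh-SH2D1A in Jurkat on day 8, or 0.15 ± 0.06 (not called). Its log2 ratios were 0.16 ± 0.08 in Jurkat on day 10 and 0.34 ± 0.11 in 6T-CEM on day 5 (not called), and in 6T-CEM on day 10 it was at 327 and 303 against 314 and 312 CPM. The mean of its 4 changes was 0.16 ± 0.03 (edgeR adjusted p = 0.00251), against -0.56 ± 0.05 for SRM (edgeR adjusted p = 1.02e-06).

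TFRC (chromosome 3, 196027183 to 196082189), the transferrin receptor, rose in Jurkat and fell in 6T-CEM on day 10. At day 8 in Jurkat it was at 394 and 393 CPM with sh-NC, against 507 and 495 with sh-SH2D1A, or 0.34 ± 0.05 (edgeR adjusted p = 0.00473). By day 10 it was at 250 and 268 against 380 and 394, or 0.58 ± 0.08 (edgeR adjusted p = 0.0029, still called when any 1 library was left out). With low counts kept it was not called on that day (edgeR adjusted p = 0.177). In 6T-CEM it was at 542 and 525 against 612 and 674 CPM on day 5, or 0.28 ± 0.11 (not called). On day 10 it was at 543 and 538 against 488 and 498, or -0.13 ± 0.03 (edgeR adjusted p = 0.0185, lost without either sh-NC library or sh-SH2D1A replicate 1). That call was also lost with low counts kept and with all 16 libraries in 1 fit. The level was thus above control in 3 tables and below it in the last.

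**Figure D3:**
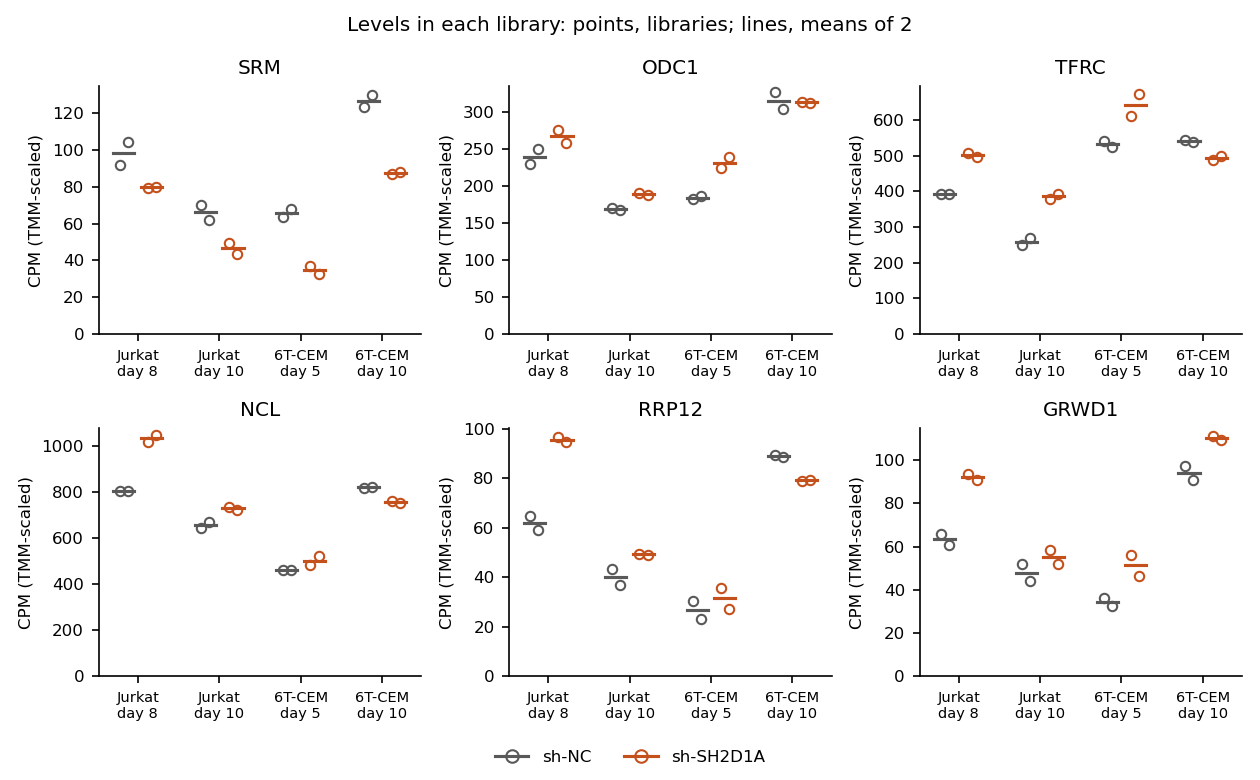
TMM-scaled CPM (y axis) of SRM, ODC1, TFRC, NCL, RRP12 and GRWD1 in each library (points) with the mean of 2 (line), for sh-NC and sh-SH2D1A in each line and day (x axis). SRM is below control in every pair, and TFRC, NCL and RRP12 are above it in Jurkat on day 8 and below it in 6T-CEM on day 10.

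The change in Jurkat minus that in 6T-CEM, each averaged over its 2 days, was positive for 37 of 40 members, with a median of 0.20 against 0.02 over all genes. edgeR called 5 members higher and 0 lower in this difference, against 1.21% and 0.69% of 22032 genes. They were TFRC at 0.40 ± 0.06 (edgeR adjusted p = 0.00316), NCL at 0.25 ± 0.05 (adjusted p = 0.0252), RRP1B at 0.26 ± 0.06 (adjusted p = 0.0379), UTP20 at 0.40 ± 0.09 (adjusted p = 0.043) and NOLC1 at 0.27 ± 0.06 (adjusted p = 0.0491). RRP1B was called lower in 6T-CEM and not called in Jurkat, while UTP20 and NOLC1 were called higher in Jurkat and not called in 6T-CEM. TFRC stayed called under every alternative. Of the 16 fits that each leave out 1 library, the call of NOLC1 was lost in 14, that of RRP1B in 13, that of UTP20 in 12 and that of NCL in 11, and between 1 and 11 members were called. The calls of NOLC1, RRP1B and UTP20 were also lost with DESeq2 size factors and with low counts kept. Without 6T-CEM day 5 sh-SH2D1A replicate 1 there were 11 and without its replicate 2 there were 9. With that whole table left out, a choice made after the data were seen, the mean Jurkat change against that of 6T-CEM on day 10 gave 12, all higher. The share of all genes called in that fit is not given here, so a gain in calls particular to the members cannot be read from it. At the day both lines share, day 10, TFRC alone was called, at 0.71 ± 0.08 (edgeR adjusted p = 0.000715), against 0.517% of genes higher and 0.295% lower, and 39 of 40 members were positive. The difference for SRM, negative in both lines, was not called, at 0.32 ± 0.09 (edgeR adjusted p = 0.104). Line and day coincide with the deposited table, so whatever else differed between tables cannot be told apart from them in any difference in response. SH2D1A itself changed by -1.0 in 6T-CEM on day 10, against -1.71 on day 5 and -1.72 and -1.60 in Jurkat. Its part in these differences was not tested.

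Between days within a line few differences in response were called. In Jurkat no member was called, and 1 gene of 22032 was (0% higher and 0.00454% lower), while 1468 had an unadjusted p under 0.05. In 6T-CEM 1 member, TFRC, differed between the days in its change, day 10 minus day 5, by -0.40 ± 0.08 (edgeR adjusted p = 0.0471), where 0.404% of genes were called higher and 0.277% lower. That call was lost without each of 14 of the 16 libraries, 1 at a time. Without 6T-CEM day 5 sh-SH2D1A replicate 1, 10 members were called. Across the 40 members, the changes in Jurkat on days 8 and 10 had a Spearman correlation of 0.479, and those in 6T-CEM on days 5 and 10 of 0.40. Between lines it ranged from 0.27 to 0.498. These are descriptions over genes, which share libraries and their depth within a comparison.

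MYC itself is context for these genes. It was at 202 and 216 CPM with sh-NC, against 285 and 297 with sh-SH2D1A in Jurkat on day 8, or 0.47 ± 0.05 (edgeR adjusted p = 0.0026). By day 10 it was at 192 and 185 against 319 and 308, or 0.74 ± 0.08 (edgeR adjusted p = 0.00076). In 6T-CEM it was at 148 and 149 against 175 and 155 CPM on day 5 and at 321 and 333 against 311 and 313 on day 10 (neither called). The summed level of the 40 members went from 6498 ± 50.7 to 7899 ± 40.9 CPM in Jurkat on day 8 (SD, n = 2) and from 5093 ± 67.7 to 5865 ± 0.226 on day 10. In 6T-CEM it went from 4928 ± 25.8 to 5437 ± 180 CPM on day 5 and from 7219 ± 10.5 to 7061 ± 18.8 on day 10. The sum was thus higher with sh-SH2D1A in 3 tables and lower in the last.

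The sh-NC libraries of different tables differed in these genes too. In 6T-CEM, 36 members were higher on day 10 than on day 5 and 2 were lower, against 19.3% and 20.6% of 22032 genes, with a median of 0.73. Every ribosome assembly member but HEATR1 was higher. RRS1, a factor of the 5S particle, went from 7.56 and 6.77 CPM to 28.9 and 28.5, a difference of 2.0 ± 0.14 (edgeR adjusted p = 2.04e-07), RRP12 from 30.3 and 22.9 to 89.5 and 88.6, or 1.74 ± 0.14 (edgeR adjusted p = 4.98e-07), and MYBBP1A from 54.4 and 49.5 to 147 and 155, or 1.54 ± 0.13 (edgeR adjusted p = 1.31e-06). The 2 lower members were the purine genes PPAT, from 98.8 and 107 to 86.7 and 85.7 CPM, or -0.26 ± 0.08 (edgeR adjusted p = 0.02), and PAICS, or -0.19 ± 0.07 (edgeR adjusted p = 0.0458). Both of these calls were lost without 6T-CEM day 5 sh-NC replicate 2, and also when any 1 of the 4 day 10 libraries was left out, and that of PAICS when any 1 Jurkat library was. The difference for TFRC was 0.02 ± 0.06 (edgeR adjusted p = 0.831, not called).

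In Jurkat the sh-NC libraries went the other way. All 40 members were lower on day 10 than on day 8, 27 of them called and 0 called higher, against 1.57% of genes called lower and 1.83% higher, with a median of -0.38. GNL3 differed by -0.65 ± 0.07 (edgeR adjusted p = 0.000362), RRP12 by -0.62 ± 0.13 (edgeR adjusted p = 0.0219) and NOP16 by -0.69 ± 0.17 (edgeR adjusted p = 0.0384). The count fell to between 9 and 11 when any 1 of the 4 Jurkat sh-NC libraries was left out, while GNL3 stayed called whichever library was left out. The day difference calls of NOP16 and RRP12 were lost in 12 and 3 of the 16 fits that each leave out 1 library. At day 10, Jurkat sh-NC was below 6T-CEM sh-NC in 34 members and above it in 2, against 18.2% of genes called lower and 18.4% higher, with a median of -0.65. UTP20 differed by -1.36 ± 0.10 (edgeR adjusted p = 8.94e-08), RRP12 by -1.15 ± 0.13 (edgeR adjusted p = 1.07e-05) and RRS1 by -1.06 ± 0.14 (edgeR adjusted p = 2.64e-05). The 2 higher in Jurkat make nucleotides, IMPDH2 at 0.38 ± 0.06 (edgeR adjusted p = 0.000276) and CAD at 0.30 ± 0.09 (edgeR adjusted p = 0.0221, lost without either 6T-CEM sh-NC library or Jurkat sh-NC replicate 1). Per kilobase of exon in the sh-NC libraries, NPM1 was at 142, 113, 89.2 and 122 CPM in Jurkat on days 8 and 10 and 6T-CEM on days 5 and 10, and POLR1C at 5.74, 4.11, 3.86 and 7.32. ODC1 was at 80.6, 57.0, 62.0 and 106 CPM per kb and TFRC at 49.9, 32.8, 67.7 and 68.6. Line and day coincide with the deposited table, so whatever else differed between the 4 tables cannot be told apart from line and day in these sh-NC contrasts.

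**Figure D4:**
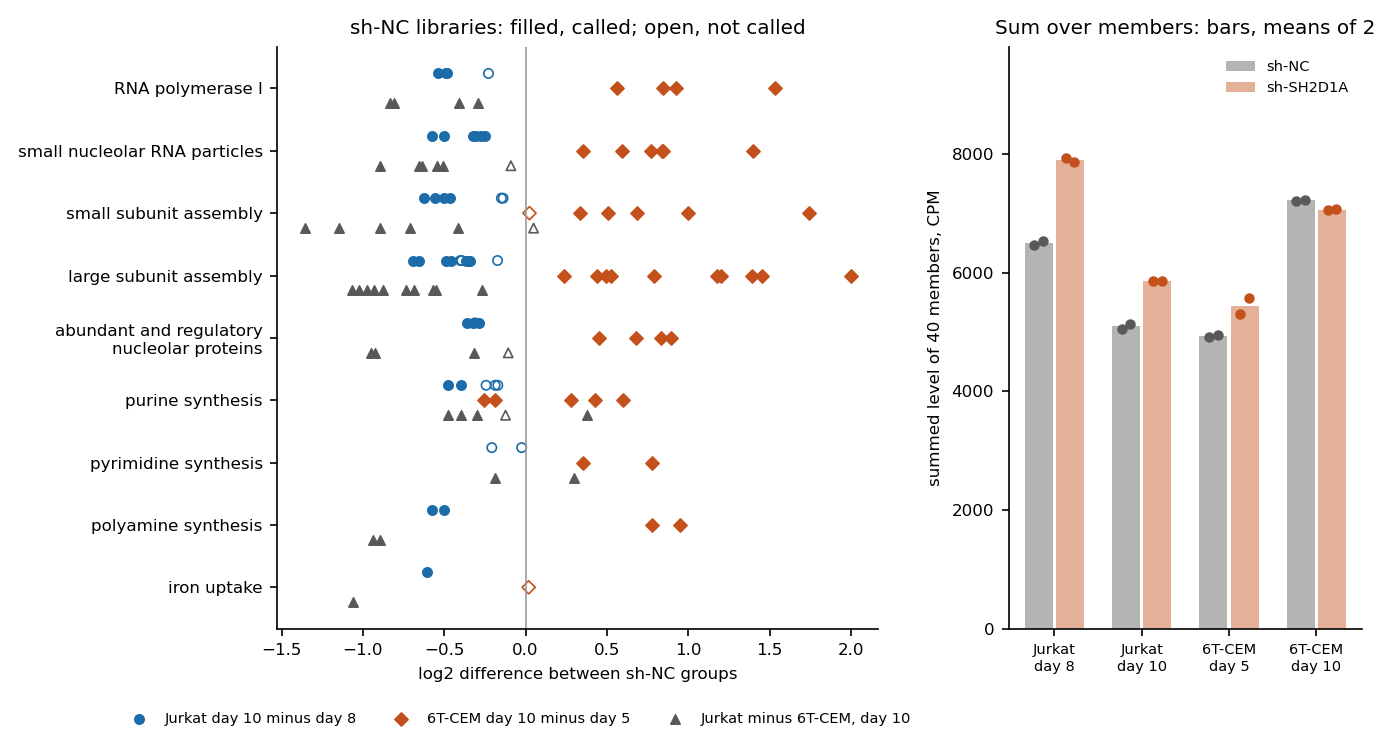
Left, log2 difference between sh-NC groups (x axis) of each member by role (y axis) for Jurkat day 10 minus day 8, 6T-CEM day 10 minus day 5 and Jurkat minus 6T-CEM on day 10, filled where called by edgeR; right, summed level of the 40 members in CPM (y axis) by line, day and shRNA (x axis), with points for libraries and bars for the mean of 2. The day difference is below 0 for all members in Jurkat and above 0 for 38 of 40 in 6T-CEM, and the sum is 5093 and 7219 CPM in the day 10 sh-NC groups.

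Other genes of the same pathways, 142 listed by function and 141 tested in each single comparison, were counted in the same way. In Jurkat on day 8, 45 rose and 7 fell, where 5.23% and 7.13% of all genes did. At day 10 in Jurkat it was 4 and 2 (1.26% and 2.52% of all genes), in 6T-CEM on day 5 none of either (0.606% and 1.51%), and on day 10, 9 and 16 (6.61% and 7.42%). The other small subunit assembly genes had 18 of 37 higher and 0 lower in Jurkat on day 8, the other large subunit assembly genes 14 of 42 and 0, and the other small nucleolar RNA particle genes 5 of 12 and 0. MRTO4, a large subunit factor, rose by 0.52 ± 0.07 and 0.46 ± 0.11 in Jurkat on days 8 and 10 (edgeR adjusted p = 0.00548 and 0.0473). RSL1D1, a nucleolar protein, rose by 0.30 ± 0.05 and 0.33 ± 0.08, and NIFK, a partner of Ki-67, by 0.27 ± 0.07 and 0.54 ± 0.10. Of the 13 other RNA polymerase I genes, 2 were higher and 1 lower on day 8 in Jurkat and 0 and 3 in 6T-CEM on day 10. POLR1D, a small subunit shared with RNA polymerase III, fell by 0.37 in Jurkat on day 8 and by 0.28 in 6T-CEM on day 10. Nucleotide genes outside the list were divided, with 6 of 28 higher and 3 lower in Jurkat on day 8 and 2 and 5 in 6T-CEM on day 10. DUT, which keeps uracil out of DNA, fell, with changes of -0.26 ± 0.06 in Jurkat on day 8 and -0.22 ± 0.04 in 6T-CEM on day 10 (edgeR adjusted p = 0.0225 and 0.00725). Of the 9 other polyamine genes 0 rose and 3 fell in Jurkat on day 8, among them SAT1, which acetylates spermidine for breakdown or export, at -0.89 ± 0.12 there and -0.55 ± 0.12 on day 10 (edgeR adjusted p = 0.00482 and 0.0284). SAT1 was not called in 6T-CEM.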

How the data were processed

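Total RNA was extracted with TRIzol, made into TruSeq libraries and sequenced on an Illumina NovaSeq, per the labels' protocols. The authors deposited 4 tables of raw read counts per Ensembl gene, 1 for each line and day, with 4 libraries each. HISAT2 2.2.0, StringTie and hg38 are named in the submitters' processing notes, while no source used here gives the counting step, its strand setting or the annotation release. Symbols came from a gene name table (40995 of 64252 identifiers), gene positions from GENCODE 29, and promoters from RefSeq. Identifiers without a symbol held 2.56 to 3.25% of counts and stayed in the tests.

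Each table was fitted with the quasi-likelihood test of edgeR 4.0.16 in R 4.3.3 after a minimum count of 10 (filterByExpr) and TMM scaling, two-sided, with p-values adjusted by Benjamini-Hochberg over all genes tested. Differences in response, the mean of the 4 changes and the sh-NC contrasts came from 1 fit of all 16 libraries with 8 group means. Standard errors are the size of the log2 change over the square root of F. The fits were tested on simulated data. At these depths, 3 counts, the limit set by a count of 0, stand for 0.0888 to 0.110 CPM.

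The 40 members, the 142 other pathway genes, the marker lists and the rules were chosen with earlier results of these data known. Values per library are given for up to 3 members of each role group with the lowest p for the mean of the 4 changes. They are also given for members called against the main direction or in both directions, for members called in all 4 comparisons, for up to 6 called members of each difference in response, and for the 3 largest changes in each direction of each sh-NC contrast. Of the other pathway genes, up to 3 of each list with the lowest p for that mean could be named. SH2D1A and MYC are context, and POLR1B was added after its values were seen. Alternatives were library totals, DESeq2 1.42.0 size factors and Wald test, other filters, all 16 libraries in 1 fit, a replicate block, each library left out, and, added after seeing the data, 6T-CEM day 5 left out.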

Additional observations from a re-analysis of the deposited data

Results flagged for a closer look

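The response of 5 members differed between the lines by edgeR's test of the difference, the change in Jurkat minus that in 6T-CEM. Line and day coincide with the deposited table, so whatever else differed between tables cannot be told apart from them. SH2D1A also fell less in 6T-CEM on day 10, by a log2 change of -1.0, than in the other comparisons, and its part was not tested. TFRC differed by 0.40 ± 0.06 (edgeR adjusted p = 0.00316), with its sh-SH2D1A libraries above control in 3 tables and below it in 6T-CEM at day 10. UTP20 differed by 0.40 ± 0.09 (edgeR adjusted p = 0.043). NOLC1 differed by 0.27 ± 0.06 (edgeR adjusted p = 0.0491). RRP1B differed by 0.26 ± 0.06 (edgeR adjusted p = 0.0379), and was called lower in 6T-CEM at day 10 and not called in Jurkat. NCL differed by 0.25 ± 0.05 (edgeR adjusted p = 0.0252). In the 16 fits that each leave out 1 library, TFRC stayed called, while NOLC1 was lost in 14, RRP1B in 13, UTP20 in 12 and NCL in 11. NOLC1, RRP1B and UTP20 were also lost with DESeq2 size factors and with low counts kept.

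TFRC differed between the lines at day 10 by 0.71 ± 0.08 (edgeR adjusted p = 0.000715). Its response also differed between the 6T-CEM days, at -0.40 ± 0.08 for day 10 minus day 5 (edgeR adjusted p = 0.0471), a call lost in 14 of those 16 fits and with DESeq2 size factors.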

How the results depend on the processing

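Of the 43 called member changes in the 4 comparisons, 8 stayed called under all 11 alternatives and 0 reversed. Of the 137 called joint differences, 95 stayed called and 0 reversed. Of the 117 changes that were not called, 28 took the other sign under some alternative.

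With no filter on low counts, the members called were 17 in Jurkat at day 8, 0 at day 10, 2 in 6T-CEM at day 10, and 2 for the line difference. For Jurkat at day 10 no gene of 34173 was then called by edgeR. With the filter kept, DESeq2 called 8 members there, and 3499 genes had an unadjusted p under 0.05 by edgeR. DESeq2's Wald test gave 2 in 6T-CEM at day 5, 8 and 4 for the line difference and that at day 10, and 5 for the day difference in 6T-CEM. DESeq2 size factors gave 2 for the line difference and 0 for the day difference in 6T-CEM (150 genes called with TMM and 2892 at an unadjusted p under 0.05). Library totals gave 3 for the line difference at day 10 and median changes of 0.32, 0.26, 0.15 and -0.0069 in the order Jurkat day 8, day 10, 6T-CEM day 5 and day 10. With all 16 libraries in 1 fit, 9 members were called in 6T-CEM at day 5 (median 0.12) and 2 at day 10. Without the 6T-CEM day 5 libraries the line difference had 12, with no share of all genes given for that fit.

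Leaving out 1 library, the lone library left being assumed to vary like the other groups, gave 7 to 28 members called in Jurkat at day 8 and 1 to 4 at day 10, and 0 to 8 and 4 to 7 in 6T-CEM at days 5 and 10. The median changes ranged from 0.28 to 0.32, 0.18 to 0.24, 0.13 to 0.15 and -0.040 to -0.0075. Calls were 25 to 31 for the mean of the 4 changes, 1 to 11 and 1 to 4 for the line difference and that at day 10, 0 for the day difference in Jurkat, and 0 to 10 for that in 6T-CEM. The sh-NC contrasts gave 31 to 36 between lines, 9 to 33 between days in Jurkat and 34 to 38 in 6T-CEM. No other sign arose for a called member in these fits.

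A replicate block gave 24, 12, 8 and 11 members called in the 4 comparisons. Same-numbered libraries had correlations of deviations of 0.0181, 0.0161, 0.00959 and 0.00636 over genes, and with 2 pairs the numbers were not taken to pair samples.

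Precision was lowest in 6T-CEM at day 5, where the change of SRM had a standard error of 0.14, against 0.04 at day 10.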
